A study of Mus musculus with 94 samples.

Results

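The 10 genes described here encode the NF-kappaB transcription factor subunits (Nfkb1, Nfkb2, Rel, Rela and Relb), proteins that restrain or modulate them (Nfkbia, Nfkbid, Nfkbiz and Tnfaip3) and an adhesion molecule induced by the pathway (Icam1). They were taken by name from the deposited table, with earlier results of these data known, and make up 10 of the 46078 mouse genes in it. All 10 were matched, and all 10 had reads in at least 10 of the cells used, the filter applied to low genes.

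NF-kappaB proteins bind DNA as dimers and are held in the cytoplasm of resting cells by IkappaB proteins. Signals from receptors for interleukins, tumour necrosis factor, microbial products and IgE activate the IkappaB kinase complex, IkappaB is degraded, and the dimers enter the nucleus. Among the genes they induce are their own inhibitors, so that the response is limited by negative feedback. In basophils, which are granulocytes that bind IgE through the receptor FcεRI, the pathway is known for driving cytokine genes after receptor stimulation.

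The cells were single bone marrow basophils from 3 female C57BL/6 mice, with no genetic change or treatment named in the labels and no age given. Live cells without lineage markers and without Sca1 that carried FcεRI were sorted into a CD34-negative and a CD34-positive gate of 47 cells each. CD34 marks immature blood cells at their surface. Because no label links a cell to its mouse, a gate is treated as a single sample: nothing could be tested, and the gate comparison has no replicate check.

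Several genes of this pathway are known as targets of NF-kappaB. The DNA before the start sites is therefore shown for the 5 members in which the kappaB consensus, the binding sequence of NF-kappaB dimers, was found. The 250 bases before each RefSeq start (GRCm38.p6) were searched on both strands. Of 32851 starts in the genome table, 7.25% held a match. The table held 7 of the 10 members, with 12 starts, and 5 members had a match at 7 of these starts. In the windows below, written 5′ to 3′ on the strand of the gene, capitals mark the 10-base matches of either strand, run together where they overlap.
Nfkbia: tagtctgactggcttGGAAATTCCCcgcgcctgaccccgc
Rel: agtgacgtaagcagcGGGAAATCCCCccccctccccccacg
Nfkbid, upstream site: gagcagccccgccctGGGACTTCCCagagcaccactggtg
Nfkbid, downstream site: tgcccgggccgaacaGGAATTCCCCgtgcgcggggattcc
Tnfaip3: actggaatttccatcGGAAATCCCCct
Nfkb2: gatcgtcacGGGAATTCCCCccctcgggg
The Nfkbia window lies at chr12:55492652-55492691 on the minus strand, and its match begins 29 bases before the start. The Rel window, chr11:23771036-23771076 on the minus strand, holds 3 overlapping matches from 92 bases before the start. Both Nfkbid windows, chr7:30422165-30422204 and chr7:30422210-30422249, belong to 1 of its 3 starts on the plus strand, and the upstream one matches on both strands. The Tnfaip3 window, chr10:19015411-19015437 on the minus strand, begins its match 12 bases before the start. The Nfkb2 window, chr19:46304689-46304717 on the plus strand, overlaps an exon of the GENCODE M21 annotation, and its 3 overlapping matches begin 39 bases before the start. Of the windows with a match, 3 more of Nfkb2 and 1 more of Tnfaip3 are not shown. No match was found at the single starts of Rela and Icam1. Nfkb1, Relb and Nfkbiz had no entry. A match describes letters in these windows and is not a measured binding site.

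Of the 94 cells, 46 per gate were used. CD34-negative cells held 262944 to 938322 gene reads and CD34-positive cells 374011 to 1154738. All 12 basophil markers checked had reads in both gates. They summed to 48856 CPM (reads per 1000000 gene reads, summed over the cells of a gate) in the CD34-negative and 99920 CPM in the other gate. Mcpt8, Prss34 and Cpa3 were higher and Cd200r3, Itga2, Itgam and Hdc lower by 2-fold or more in CD34-positive cells, and the IgE receptor chain gene Fcer1a stood at 3012 and 3185 CPM. Markers of other cells, each list summed in the CD34-negative and then the CD34-positive gate, were at 0.0299 and 7.33 CPM for mast cells, 1.41 and 0.133 CPM for T and NK cells, 3.53 and 35.7 CPM for erythroid cells, 19.7 and 71.2 CPM for neutrophils and 64.0 and 49.5 CPM for B cells. In these lists Mcpt1, Mcpt2, Mrgprb1 and Mrgprb2 (mast cell), Cd3g, Trac, Ncr1 and Gzma (T and NK cell), Hba-a1, Hba-a2 and Car1 (erythroid) and Ltf, Camp and Ly6g (neutrophil) had no reads. The eosinophil list summed to 174.6 and 117.0 CPM, the monocyte and dendritic cell list to 578 and 151 CPM, the megakaryocyte list to 1447 and 936 CPM and the endothelial and stromal list to 405 and 475 CPM. Ear1, Cd209a, Pf4, Ppbp, Cdh5 and Cxcl12 of these lists had no reads. Single cells reached 2589.9 and 1077 CPM for the monocyte and dendritic cell list and 3916 and 2672 CPM for the megakaryocyte list. At 200000 gene reads per cell, the median CD34-negative cell had 4526.5 genes with a read and the median CD34-positive cell 6518. The median number of gene reads per read of ERCC spike-in RNA was 6.87 and 14.4. The part of these differences in the results below was not tested.

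Cell 10 of the CD34-negative gate went against its label. It had 2 reads each of Fcer1a and Ms4a2, or 7.61 CPM, where the other CD34-negative cells had at least 222.9 and 481 CPM. Of the 12 basophil markers 8 had a read in it, against 10 to 12 in each other cell of its gate. Hdc had none and Gata2 was at 3.80 CPM, where the other CD34-negative cells had at least 101 and 928.5 CPM. Il3ra, Itga2 and Itgam had no read either, as in some other cells of the gate. Mcpt8, Prss34, Cpa3 and Cd200r3 lay inside the range of the other cells. Its sum over the monocyte and dendritic cell list, 2589.9 CPM, was above the 1709 CPM of the next cell of the gate, with Csf1r at 966 and Itgax at 445 CPM. It was also highest in its gate for the endothelial and stromal list, at 1840.7 CPM, and for Fcer1g, a signalling chain shared by FcεRI and other receptors, at 2054 CPM. It passed the cell filter and is kept in the values below. Some values of the members are given without it as well, an alternative chosen after the data were seen.

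Most NF-kappaB genes had a lower share of the reads in the CD34-positive than in the CD34-negative gate. Summed CPM was lower for 8 of the 10 members, against 41.1% of all genes, and higher for Nfkbiz and Icam1. Without cell 10 of the CD34-negative gate it was lower for 7, since Rela, for which no direction is given below, changed sign. The median log2 fold, the log2 ratio of CPM plus 1, CD34-positive over CD34-negative, was -0.42 over the members and 0.19 over the 12460 genes with reads in at least 10 cells. Relb and Nfkbid, 2 of 10 members, were lower by 2-fold or more, a size that 10.1% of all genes reached in this direction. No member was higher by 2-fold or more, against 21.7% of all genes.

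The direction depended on the scaling. With ERCC reads in place of gene reads, the median of all genes moved to 1.04 and that of the members to 0.52, and Nfkb1, Nfkb2, Rel, Rela, Nfkbia and Tnfaip3 changed sign. On that scale 2 members, Nfkbiz and Icam1, were higher by 2-fold or more (51.8% of all genes) and only Relb was lower by 2-fold or more (2.25% of all genes). Set against the median of all genes, 9 of 10 members were below it under gene-read scaling and 9 of 10 under ERCC scaling, with Icam1 above it in each. Without cell 10 of the CD34-negative gate, 8 of 10 were below it under each scaling, with Nfkbiz also above, and the median of the members was -0.37.

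**Figure D1:**
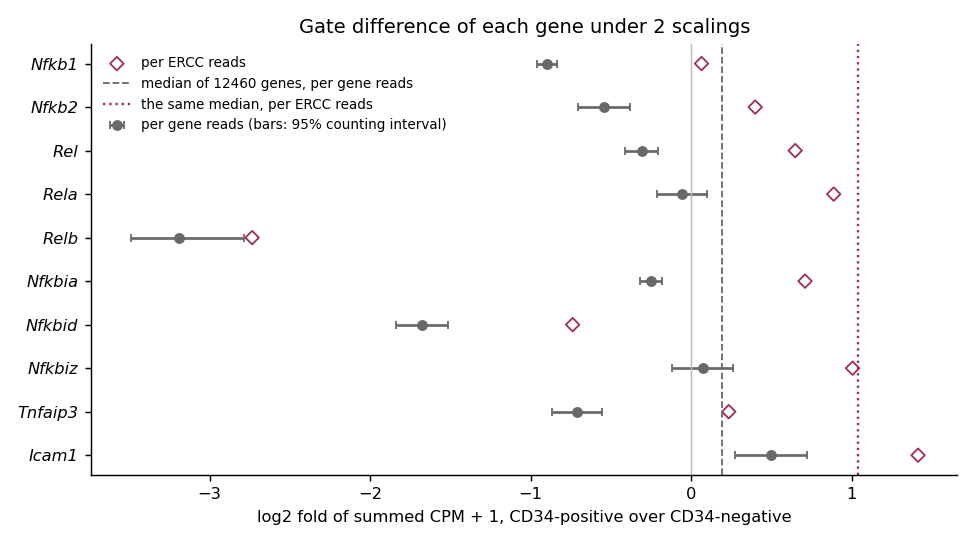
Log2 fold of summed CPM plus 1, CD34-positive over CD34-negative gate, for the 10 genes. Filled points are scaled by gene reads with 95% counting intervals, open diamonds by ERCC reads, and vertical lines mark the median of all 12460 genes under each scaling (0.19 and 1.04). With all kept cells, every gene but Icam1 sits left of the line of its scaling.

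The subunit genes were led by Nfkb1 (ENSMUSG00000028163, chromosome 3, 135584655 to 135691547, mm10), which encodes the precursor of a DNA-binding subunit that pairs with RelA. Across CD34-negative cells it ranged from 0 to 1783 CPM with a median of 202, and across CD34-positive cells from 0 to 774 CPM with a median of 139. Cells of both gates ran from none to high levels, so the gates overlapped widely. The mean per-cell level was 332 ± 377 CPM (SD, n = 46 cells) for CD34-negative and 204 ± 188 CPM (SD, n = 46 cells) for CD34-positive cells, a difference smaller than the spread between cells. Summed CPM was 347 (341 to 353) and 185.8 (180.9 to 190.7), a log2 fold of -0.90 (-0.96 to -0.83), which was -1.14 with scran size factors. These intervals, here and below, cover counting error only.

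Rel (ENSMUSG00000020275, chromosome 11) encodes c-Rel, a subunit with a transactivation domain that is prominent in blood cells. It ranged from 0 to 566 CPM in CD34-negative cells, with a median of 38.9, and from 0 to 847 CPM in CD34-positive cells, with a median of 50.5. The summed levels of 107 and 86.5 CPM gave a log2 fold of -0.31 (-0.41 to -0.21), while the medians over cells had the opposite order. Its highest cell, number 5 of the CD34-positive gate, held 17.2% of the reads of that gate, and the fold was -0.55 without it and -0.14 without cell 18 of the CD34-negative gate.

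Rela (ENSMUSG00000024927, chromosome 19) encodes RelA, the transactivating partner in the classical dimer. It ranged from 0 to 319 CPM in CD34-negative cells (median 2.56; without cell 10, its highest cell, up to 249 CPM with a median of 1.38) and from 0 to 189 CPM in CD34-positive cells (median 11). Summed CPM was 42.3 and 40.7, and the counting interval of the log2 fold, -0.21 to 0.10, included 0. The fold was 0.14 without cell 3 of the CD34-negative gate, 0.019 without cell 10, and 0.058 with edgeR TMM factors, so no direction is given for Rela.

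The subunits of the alternative pathway were found in fewer cells. Nfkb2 (ENSMUSG00000025225, chromosome 19), which encodes the precursor that pairs with RelB, ranged from 0 to 456 CPM in CD34-negative cells (median 0; up to 436 without cell 10) and from 0 to 264 CPM in CD34-positive cells (median 6.51). Its summed CPM was 45.4 and 30.9, a log2 fold of -0.54 (-0.70 to -0.38) that became -0.15 without cell 42 and -0.44 without cell 10 of the CD34-negative gate. In the annotation, 18.1% of its exon bases are shared with neighbouring genes on the opposite strand, and the strand setting of the counting is not given in the sources used here, so its level is less certain.

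Relb (ENSMUSG00000002983, chromosome 7) had the lowest fold of the members with the pseudocount of 1 CPM. It had 333 reads in 7 CD34-negative cells, or 9.96 CPM (8.92 to 11.1), and 6 reads in 4 CD34-positive cells, or 0.200 CPM (0.0733 to 0.435). The CD34-negative cells with most reads were number 37 with 145 reads, number 46 with 78, number 13 with 71 and number 15 with 34, while the other 3 had 1 to 3 reads. No CD34-positive cell had more than 3 reads. The log2 fold was -3.19 (-3.49 to -2.79), and -2.49 without cell 37. It depended on the pseudocount, at -5.07 with 0.1 CPM and -0.97 with 10 CPM, where Nfkbid was lower at -1.36.

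The inhibitor genes behaved in different ways. Nfkbia (ENSMUSG00000021025, chromosome 12, 55489410 to 55492647, mm10), whose promoter window is shown above, encodes IkappaB-alpha, the feedback inhibitor that returns dimers to the cytoplasm. CD34-negative cells ranged from 0 to 1020.5 CPM with a median of 189.5, and CD34-positive cells from 0.866 to 753 CPM with a median of 119.5. It was the only member with a read in each of the 46 CD34-positive cells, and 42 of 46 CD34-negative cells had one. Summed CPM was 228 (223 to 233.5) and 191.6 (186.7 to 196.6), a log2 fold of -0.25 (-0.32 to -0.18). The per-cell means of 230.1 ± 234 and 185.7 ± 174.3 CPM (SD, n = 46 cells each) lay closer together than the cells of a gate.

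**Figure D2:**
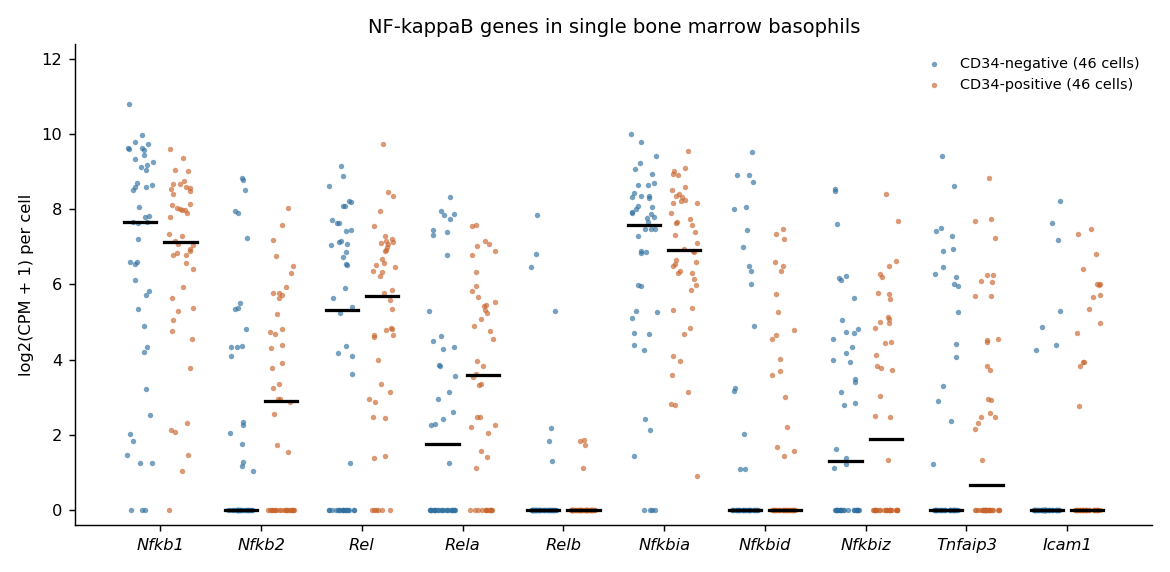
Level of each gene in each of the 46 cells per gate, as log2(CPM + 1), with black bars at the median. Nfkb1 and Nfkbia were found in nearly all cells, Relb reached high levels only in 4 CD34-negative cells, and the gates overlapped for every gene.

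Nfkbid (ENSMUSG00000036931, chromosome 7) encodes IkappaB-NS, a nuclear member of the IkappaB family that acts on dimers bound to DNA. Its median was 0 CPM in both gates. The highest CD34-negative cell reached 736 CPM and the highest CD34-positive cell 177 CPM, so the gates overlapped below that level. Summed CPM was 71.7 (68.9 to 74.7) over CD34-negative and 21.7 (20.1 to 23.5) over CD34-positive cells, and the log2 fold was -1.68 (-1.84 to -1.51). Leaving out any single cell kept it between -1.93 and -1.37, and with ERCC scaling it was -0.74.

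Nfkbiz (ENSMUSG00000035356, chromosome 16) encodes IkappaB-zeta, a nuclear relative that co-activates secondary response genes. It ranged from 0 to 373 CPM (median 1.46) in CD34-negative and from 0 to 337 CPM (median 3.00) in CD34-positive cells. Summed CPM was 25.7 and 27.1, and the interval of the log2 fold, -0.12 to 0.26, included 0. Its sign changed with the cells used, from -0.31 without cell 13 of the CD34-positive gate to 0.51 without cell 38 of the CD34-negative gate. Without cell 10, its highest CD34-negative cell, it was 0.23.

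Tnfaip3 (ENSMUSG00000019850, chromosome 10) encodes a ubiquitin-editing enzyme that shuts off signalling upstream of the IkappaB kinases. It ranged from 0 to 680 CPM (median 0) in CD34-negative and from 0 to 454 CPM (median 0.750) in CD34-positive cells. Summed CPM was 52.7 (50.3 to 55.2) and 31.9 (29.9 to 34), a log2 fold of -0.71 (-0.86 to -0.55). Single cells carried much of it: cell 13 held 31.4% of the CD34-negative reads and cell 7 held 28.1% of the CD34-positive reads. The fold was -0.21 without the former and -1.14 without the latter, and it was -1.07 with cells numbered 7 to 42 of each gate.

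Icam1 (ENSMUSG00000037405, chromosome 9) encodes an adhesion molecule that binds leukocyte integrins and is a known target of NF-kappaB. With all kept cells it was the only member above the median of all genes, with 15.4 CPM (14.1 to 16.8) over CD34-negative and 22.1 CPM (20.4 to 23.8) over CD34-positive cells, and the log2 fold was 0.50 (0.27 to 0.72). Reads were found in 7 CD34-negative cells, with up to 295 CPM, and in 16 CD34-positive cells, with up to 177 CPM. Cell 16 held 41.6% of the CD34-negative reads. The fold was 1.18 without that cell and -0.053 when only cells numbered 7 to 42 of each gate were used. An antisense gene model on the opposite strand covers 11.7% of its exon bases.

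Levels of different genes were compared only per length, as summed CPM per kilobase of merged exons in GENCODE M21. On this scale Nfkbia was highest in both gates, at 142 CPM per kilobase over CD34-negative and 119.0 over CD34-positive cells. In the CD34-negative gate the next level was that of Nfkbid at 30.6, followed by Nfkb1 at 28.8, Rel at 14.4, Rela at 13.8, Nfkb2 at 9.91, Tnfaip3 at 7.30, Nfkbiz at 5.12, Icam1 at 3.52 and Relb at 2.56 CPM per kilobase. In the CD34-positive gate the order after Nfkbia was Nfkb1 at 15.4, Rela at 13.2, Rel at 11.6, Nfkbid at 9.27, Nfkb2 at 6.74, Nfkbiz at 5.40, Icam1 at 5.06, Tnfaip3 at 4.41 and Relb at 0.0514 CPM per kilobase. In each gate all 9 steps between neighbours in these orders, the step below Nfkbia included, were smaller than the larger cell-to-cell SD of the pair. Below Nfkbia the step was 111 CPM per kilobase against an SD of 145.5 in CD34-negative cells, and 103.6 against 108 in CD34-positive cells. Nfkbid stood next to Nfkbia in the former order and below Rel in the latter.

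The members were rarely found all together. After 200000 gene reads were drawn from each cell, a CD34-negative cell had a read of 4 of the 10 members in the median (4.59 ± 1.59, SD, n = 46 cells; 4.53 ± 1.56 without cell 10) and a CD34-positive cell of 6 (5.5 ± 1.5, SD, n = 46 cells). Cells ranged from 2 to 8 members in both gates, and no cell had all 10. The difference in the medians was 2 at this depth, 1 without drawing and 0 when at least 10 reads were required, at 3 members in each gate. The number of all genes found per cell at 200000 gene reads, given above, was also higher in CD34-positive cells, and its part in this difference was not tested.

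**Figure D3:**
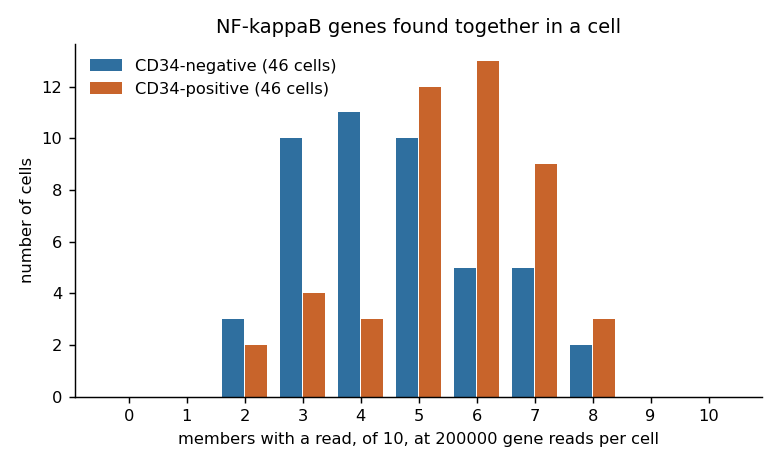
Number of cells (vertical axis) by the number of the 10 genes with a read at 200000 gene reads per cell (horizontal axis), for 46 cells per gate. Both gates span 2 to 8 genes, with the median at 4 in CD34-negative and 6 in CD34-positive cells.

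The share of cells with a read was taken at the same depth of 200000 gene reads, where Nfkbia was found in 89.1% (exact Clopper-Pearson 95% interval 76.4% to 96.4%) of CD34-negative and 97.8% (88.5% to 99.9%) of CD34-positive cells. Nfkb1 was found in 87.0% and 91.3%, Rel in 60.9% and 80.4%, and Rela in 45.7% and 69.6%. Nfkb2 was found in 39.1% and 47.8%, Nfkbiz in 41.3% and 45.7%, Tnfaip3 in 39.1% and 45.7%, Nfkbid in 30.4% and 34.8%, and Icam1 in 15.2% (6.34% to 28.9%) and 32.6% (19.5% to 48.0%). Relb was found in 10.9% and 4.35%. The intervals of the gates overlapped for each of the 10 members, the order of the gates turned under some settings for Nfkbid, Tnfaip3 and Nfkbiz, and no order of the gates is read from these shares.

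Within a gate the members varied largely apart from each other. Among the 45 pairs, Spearman's rho of log2(CPM + 1) over 46 cells ran from -0.31 to 0.29 among CD34-negative cells (median 0.030) and from -0.31 to 0.34 among CD34-positive cells (median 0.031). Without cell 10 the former median was 0.018. Of the pairs, 27 (25 without cell 10) and 25 had a rho above 0, and 17 had one above 0 in both gates. The pair highest in both gates was Rela with Icam1, at 0.29 and 0.34. Without cell 10 of the CD34-negative gate its rho there was 0.22, and Rel with Relb was highest at 0.26. Each of these genes also had a positive rho with the number of genes found per cell, at 0.18 and 0.34 for Rela and at 0.33 and 0.47 for Icam1. Nfkb1 and Nfkbia, the members found in most cells, had a rho of -0.31 among CD34-negative and 0.20 among CD34-positive cells. With the number of genes found per cell, Nfkb1 had a rho of -0.45 and 0.24, and Nfkbia one of 0.21 and -0.093. The points share library preparation and differ in depth, and values this low in sparse counts describe these cells only.

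**Figure D4:**
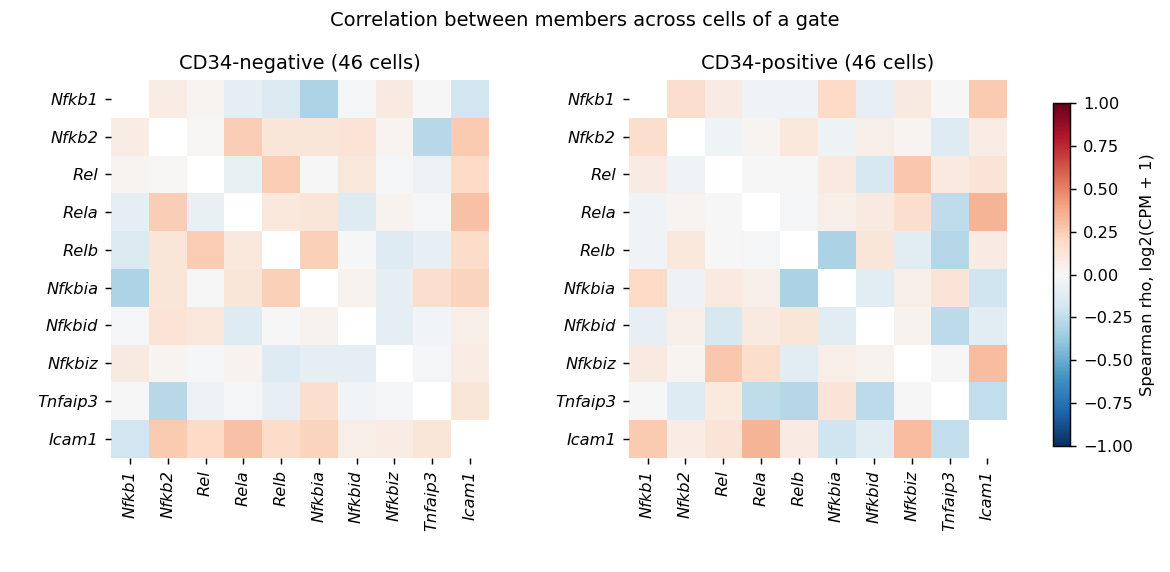
Spearman's rho between each pair of the 10 genes over the 46 cells of the CD34-negative gate (left) and of the CD34-positive gate (right), on a colour scale from -1 to 1. All squares are pale, between -0.31 and 0.34, and with all kept cells the pair of Rela and Icam1 is the highest in each gate.

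The genes most like a member were searched among 4223 genes found in at least 23 cells of both gates (for the members, at 200000 gene reads), by the smaller of the rhos in the 2 gates. For Nfkb1 these were Igf1r (0.36), Arhgap45 (0.34) and Inpp1 (0.33). For Nfkbia they were Xpc (0.37), Uqcrc2 (0.34) and Esd (0.31), in whose place Klf7 (0.32) stood without cell 10 of the CD34-negative gate. For Rel they were Itgal (0.33), Irf1 (0.32) and Pink1 (0.31), of which Irf1 was on the list of inducible targets used below. Rela met the detection limit only in the CD34-positive gate, where Bmp2k (0.59), Tnfrsf18 (0.56) and Mcrip1 (0.56) came first among 7017 genes. Across these cells Rela also had a rho of 0.34 with the number of genes found per cell. The other 6 members were found in too few cells. These values are the highest among 4223 or 7017 rhos over 46 cells of a gate. Whether they exceed those of unrelated genes was not tested, and they describe these cells only.

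Other genes of the pathway were described by 5 lists. These were chosen with earlier results of these data known, so their shares beside those of all genes are descriptions only. Of the 18 other inhibitors, 16 passed the filter on low genes, and their median log2 fold was -0.28. Nfkbie, which encodes IkappaB-epsilon, was the only one lower by 2-fold or more, at 71.4 and 25.3 CPM with a log2 fold of -1.46 (-1.62 to -1.30), and none was higher by that size. The share lower, 6.25%, compares with 10.1% of all genes, and the absence of higher ones with 21.7%. With ERCC scaling none was lower and 4 of 16 were higher by 2-fold or more, against 2.25% and 51.8% of all genes. Tnip1, a partner of the enzyme encoded by Tnfaip3, was at -0.64, and Otud7b, a deubiquitinase, at -0.59, and both changed sign with ERCC scaling, to 0.32 and 0.36. Among the genes of the list that reached 10 CPM in a gate, Commd1 at 0.66, Sigirr at 0.33 and N4bp1 at 0.32 were the highest.

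Among the kinases and adaptors, 28 of 31 genes passed the filter, with a median log2 fold of -0.42. Lower by 2-fold or more were 3 of 28 and higher 5 of 28, shares of 10.7% and 17.9% that lie near the 10.1% and 21.7% of all genes. With ERCC scaling 1 of 28 was lower and 10 of 28 were higher by 2-fold or more, against 2.25% and 51.8% of all genes. Myd88, the adaptor of Toll-like, IL-1, IL-18 and IL-33 receptors, stood at 86.1 CPM over CD34-negative and 15.8 CPM over CD34-positive cells, and its log2 fold was -2.37 (-2.55 to -2.20). Its reads were found in 34 and 21 of 46 cells at 200000 gene reads. Its kinases differed in opposite directions: Irak4 had a log2 fold of -1.25 (-1.38 to -1.13; -0.30 with ERCC scaling), and Irak1, at 85.9 and 247.9 CPM, one of 1.52 (1.43 to 1.60). Ikbkg, the regulatory subunit of the IkappaB kinase, was at -1.01, at the 2-fold limit, and at -0.54 with cells numbered 7 to 42 and -0.055 with ERCC scaling. Ikbke, a related kinase, had 817 reads in 13 CD34-positive cells and 4 reads in 3 CD34-negative cells, so the former gate alone took it past the filter. Its log2 fold was 4.65 (4.34 to 4.87), 6.96 with a pseudocount of 0.1 CPM and 1.88 with 10 CPM. Tab1, an adaptor of the kinase Map3k7, was at 1.92, and at 2.62 without cell 31 of the CD34-negative gate.

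Of the 23 receptor chains, 12 passed the filter, with a median of 0.20, close to that of all genes. Lower by 2-fold or more were 2 of 12, and higher were 2 of 12, Tnfrsf1a and Tnfrsf13b, each 16.7%, against 10.1% and 21.7% of all genes. With ERCC scaling 1 of 12 was lower and 7 of 12 were higher by 2-fold or more, against 2.25% and 51.8% of all genes. Those lower under gene-read scaling were Il18r1 and Il18rap, the chains of the IL-18 receptor, at 580 and 114 CPM (log2 fold -2.33) and at 2224 and 710.4 CPM (log2 fold -1.65, and -0.68 with ERCC scaling). Il1rap, a shared chain of the IL-1 and IL-33 receptors, was at -0.91 and, with ERCC scaling, at 0.049. Tnfrsf13b, a receptor for tumour necrosis factor family ligands, had 476 reads in CD34-positive cells and none in CD34-negative cells, at least 177-fold higher when the latter are set to 3 reads in all, the limit that a count of 0 allows. Ms4a2, a chain of FcεRI, was at 0.43. Tlr6, a Toll-like receptor, was at 0.58 and changed sign without its highest cell, to -0.69. Tlr3, Cd40 and Tnfrsf13c had no reads in either gate.

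Under gene-read scaling most inducible targets were lower in the CD34-positive gate. Of 27 genes 15 passed the filter, and 8 of these, or 53.3%, were lower by 2-fold or more, against 10.1% of all genes, while none was higher by that size. Their median log2 fold was -1.08. With ERCC scaling it was -0.15, and 4 of 15 were lower and 4 of 15 higher by 2-fold or more, against 2.25% and 51.8% of all genes. Slfn2 stood at 426 and 24.1 CPM (log2 fold -4.09), Nlrp3, the inflammasome sensor, at 72.1 and 5.13 CPM (-3.58, and -5.10 without cell 37 of the CD34-positive gate, which held 78.6% of its reads there), and the chemokine gene Ccl4 at 240.3 and 22.1 CPM (-3.38, and -4.10 without cell 46 of the CD34-positive gate). Bcl2l1, a survival gene, at 0.91 (1.67 without cell 35 of the CD34-negative gate), Ier3 at 0.28 and Sod2 at 0.12 were the highest among those that reached 10 CPM in a gate. Il1a, Cxcl1, Cxcl2, Cxcl10, Cd83 and Csf2 had no reads in either gate.

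Immediate-early genes, which respond to stimulation and to handling of cells, were mostly lower in the CD34-positive gate as well under this scaling. Of 24 genes 19 passed the filter, and 13 of these, or 68.4%, were lower by 2-fold or more, against 10.1% of all genes, and 2, or 10.5%, were higher, against 21.7%. With ERCC scaling 3 of 19 were lower and 4 of 19 higher by 2-fold or more, against 2.25% and 51.8% of all genes, and the median of -1.46 became -0.50. The summed level of the list per cell ranged from 152 to 8887 CPM among CD34-negative and from 128 to 3358 CPM among CD34-positive cells. Zfp36, an mRNA decay factor, had a log2 fold of -5.20 (-3.47 with a pseudocount of 10 CPM), Junb one of -2.74 and Ier5 one of -1.82, while Myc was at 1.08 (0.52 without cell 1 of the CD34-positive gate and 0.31 with cells numbered 7 to 42), Zfp36l1 at 0.50 (1.17 with the latter cells) and Hspa1b at 0.10, a value that ran from -1.59 without cell 7 of the CD34-positive gate to 3.07 without cell 14 of the CD34-negative gate. Across cells, the list sum had a rho of 0.44 with Nfkbiz and 0.28 with Tnfaip3 among CD34-negative cells, and of 0.14 and 0.16 among CD34-positive cells. With Nfkbia it had a rho of -0.06 and 0.26, with Rela one of -0.10 and -0.23, and with Icam1 one of -0.14 and -0.48. The part of this list in the differences of the members was not tested.

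**Figure D5:**
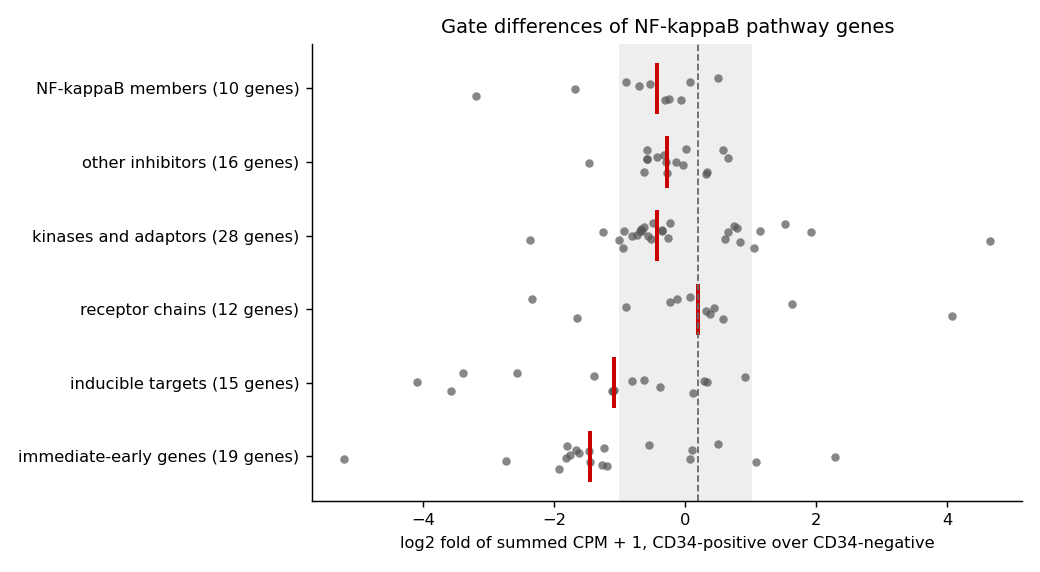
Log2 fold of summed CPM plus 1, CD34-positive over CD34-negative, for each gene that passed the filter in the NF-kappaB gene set and 5 pathway lists. Red bars are list medians, the dashed line is the median of all genes (0.19), and the grey band covers folds below 2. The inducible targets and immediate-early genes lie furthest left, with medians of -1.08 and -1.46.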

How the data were processed

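Per the labels' protocols, cDNA of 94 single cells went through 19 PCR cycles, and libraries were sequenced single-end at 50 bp. The deposited data are 1 table of raw read counts per gene and cell, with 92 ERCC rows and 5 summary rows. Reads were aligned to mm10 with GSNAP and counted with HTSeq 0.5.3p3, per the submitters' processing notes; the annotation release and strand setting are not given in the sources used here. Of all reads, 32.4% were assigned to genes, 3.97% to ERCC, 7.68% were ambiguous, 33.0% had no feature and 22.9% were not aligned, and only gene reads entered library sizes.

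Symbols were matched by identifier for 45143 of 46078 genes. A cell entered the sums if it had 50000 gene reads or more, 1000 genes or more, under 20% mitochondrial and under 50% ERCC reads, which left out 2 cells. No 2 columns were identical. No clustering and no doublet calling was done, since the cells were sorted individually. Counts were summed per gate and given as CPM. Log2 folds used a pseudocount of 1 CPM, with exact Poisson 95% bounds of one gate set against those of the other. Reads carry no molecular identifiers, so intervals and floors cover counting error only. Shares of cells were taken after drawing 200000 gene reads per cell without replacement. With 1 sample per gate no test was run. The calculations were tested on simulated data. The simulated cells of a gate differed by depth and counting error only, so this checks the arithmetic, not the spread of folds between real cells.

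The members and lists were chosen with earlier results of these data known. Named besides the members were the 3 highest and 3 lowest genes by log2 fold of each pathway list among those that reached 10 CPM in either gate, and the 3 genes most like each member. The alternatives were other cell filters, scalings (scran 1.30.0, edgeR 4.0.16 TMM, ERCC), pseudocounts, low-gene filters, drawing depths and left-out cells. Leaving out cell 10 of the CD34-negative gate was added after seeing the data. The work used R 4.3.3 and Python 3.11.15 with pandas 2.3.3, scipy 1.17.1, matplotlib 3.10.9 and numpy 2.4.6.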

Additional observations from a re-analysis of the deposited data

Results flagged for a closer look

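With only 31504 gene reads, CD34-positive cell 3 was left out of the main values and used only in the alternative with all 94 cells. It still held 19 reads of the 10 NF-kappaB genes in all, above the 3 reads that a count of 0 allows for. The reads came from 4 of the genes, Nfkbia with 8 reads, Rela, Nfkbiz and Icam1, and 3 of these were above 3 reads each. The members summed to 603 CPM in it, and the kept cells of that gate ranged from 99.95 to 1387 CPM. The left-out cell 20 of the CD34-negative gate had 1 member read in 24565 gene reads.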

How the results depend on the processing

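No paired analysis was possible because title numbers are mere names of cells, and nothing here rests on a test. Drawing 200000 reads from all 94 cells gives the same 92 cells and was not run. For each change given here, the cause was not tested. ERCC scaling reversed the medians of the members (0.52), the other inhibitors (0.66) and the kinases and adaptors (0.53), and gave 1.17 for receptors, -0.15 for inducible targets and -0.50 for immediate-early genes, with 2 members higher and 1 lower by 2-fold or more. It reversed Nfkb1 (0.065), Nfkb2 (0.40), Rel (0.65), Rela (0.89), Nfkbia (0.71), Tnfaip3 (0.23), Il1rap (0.049), Otud7b (0.36) and Tnip1 (0.32). With scran size factors the medians were -0.66 for members, -0.52 for other inhibitors, -0.66 for kinases and adaptors, -0.040 for receptors, -1.22 for inducible targets and -1.70 for immediate-early genes. That of all genes was -0.0098, and Nfkbiz (-0.16), Sod2 (-0.12) and Hspa1b (-0.14) changed sign. TMM factors gave 0.32 for receptors, -1.34 for immediate-early genes and 0.058 for Rela. Mean per-cell CPM gave 0.079 for receptors and -0.13 for Nfkbiz.

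When each gene lost its top cell by reads, the medians were -0.15 for members, -0.0060 for other inhibitors, -0.18 for kinases and adaptors, 0.079 for receptors, -0.62 for inducible targets and -1.19 for immediate-early genes. Then 1 member, Icam1, was higher by 2-fold or more, and Rela (0.14) and Tlr6 (-0.69) changed sign. Cells numbered 7 to 42 gave -0.23 for kinases and adaptors, -0.52 for inducible targets, -1.55 for immediate-early genes, and reversed Icam1 (-0.053), Nfkbiz (-0.16), Rela (0.10), Tlr6 (-0.83) and Hspa1b (-0.031). A pseudocount of 10 CPM left 1 member lower by 2-fold or more, and gave -1.14 for immediate-early genes, -2.44 for Nlrp3, 1.19 for Tab1 and -1.16 for Ier5. Requiring 10 CPM in a gate gave 0.081 for receptors, and at least 1 read 0.064 for receptors and -1.24 for immediate-early genes. Requiring 10 reads for detection made the difference in members per cell 0.

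Leaving out each cell in turn gave ranges of -0.54 to -0.24 for members (highest without cell 3 of the CD34-negative gate), -0.32 to -0.16 for other inhibitors, -0.53 to -0.36 for kinases and adaptors, -0.055 to 0.24 for receptors (lowest without cell 43 of the CD34-positive gate), -1.18 to -0.73 for inducible targets and -1.54 to -1.20 for immediate-early genes. The count of members lower by 2-fold or more ran from 2 to 3, with 3 without cell 7 of the CD34-positive gate, and of those higher from 0 to 1, with 1 without cell 16 of the CD34-negative gate. Ranges that crossed 0 were -0.22 to 0.14 for Rela, -0.31 to 0.51 for Nfkbiz, -0.039 to 0.28 for Sod2, -0.69 to 1.67 for Tlr6 and -1.59 to 3.07 for Hspa1b. Without cell 10 of the CD34-negative gate, an alternative chosen after seeing the data, Rela was 0.019, the list medians stayed inside their counting intervals, and the counts of members past 2-fold were the same. Of 140 alternative values of the member folds, 16 had the other sign, and of the rest 51 lay outside and 73 inside the interval from counting error. Relb and Nfkbid were lower in the CD34-positive gate under each of these. Relb rests on 6 reads in the CD34-positive gate.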

Other observations

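The cells with the highest levels of the members were compared after their values were seen. In the CD34-negative gate, cell 10, whose basophil markers were low, had the highest level of Nfkb2, Rela and Nfkbiz, and cell 13 that of Nfkbia and Tnfaip3. The other 5 members had their highest level in 5 different cells. In the CD34-positive gate, cell 25 was highest for Rela and Nfkbia, and the other 8 members were highest in 8 different cells. Summed over the 10 members, the level per cell ran from 43.8 to 2085 CPM (median 846) among CD34-negative cells and from 99.95 to 1387 CPM (median 584) among CD34-positive cells.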
